A study of Mus musculus with 12 samples.

Results

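Immediate early genes are transcribed within minutes of a stimulus without new protein synthesis, and their mRNAs are short-lived. Growth factor, stress and cytokine signals reach them through MAP kinases, which act on the serum response factor with its Elk partners and on CREB and ATF proteins already bound at their promoters. Many of the proteins made are transcription factors: Fos and Jun proteins pair as the dimer AP-1, and Egr1 and Klf6 are zinc-finger factors. Others end the response, since Dusp1 dephosphorylates MAP kinases and Zfp36 directs AU-rich mRNAs to decay. In liver, these genes are known for their burst after partial hepatectomy, injury and acute-phase cytokines.

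The 10 immediate early genes described here were taken from the table by their symbols (Fos, Jun, Junb, Jund, Egr1, Atf3, Klf6, Ier3, Dusp1 and Zfp36), out of 22899 genes listed in the table. Each gene was measured by RNA-seq of tissue labelled kidney in 12 libraries, 3 for each of 4 groups. The mice were female Kunming, an outbred stock, and were 6 to 8 weeks old when obtained, before acclimation and dosing. The colistin + 7-HC group received colistin, a polymyxin antibiotic, at 15 mg/kg per day plus 7-hydroxycoumarin (7-HC, a plant coumarin) at 50 mg/kg per day. The colistin group received colistin alone at 15 mg/kg per day, the 7-HC group received 7-HC alone at 50 mg/kg per day, and the control group received saline. All mice were injected intraperitoneally for 7 days. According to the methods, 7-HC was dissolved in dilute DMSO, which is not described for the control group or for colistin alone. 7-HC and its vehicle therefore cannot be told apart in comparisons with either group or in the interaction. Tissue was taken hours after the last dose, so the values are those of a late time and not of the first response.

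Of the 10 genes, 9 were tested, with at least 1 FPKM (fragments per kilobase of transcript, scaled to the size of the library) in at least 3 libraries. Fos reached 1 FPKM in 2 libraries, both of them controls, and is given by its values. The mRNA levels covered a wide range. In the control group, Zfp36 was the most abundant at 90.0 ± 8.93 FPKM (SD, n = 3), above 95.8% of all genes with values, and Atf3 was the least abundant at 1.06 ± 0.586 FPKM, above 42.6%. Jund varied least over the 12 libraries, by 1.64-fold between its lowest and highest value, against 21.8-fold for Dusp1 and 22.0-fold for Egr1.

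Promoter sequences are shown because they carry the elements through which this class of genes is known to be induced. RefSeq windows on GRCm38.p6 matched 9 of the 10 genes, the exception being Egr1. In the 250 bases before the start, both strands were searched for the CREB/ATF element TGACNTCA and its shorter form TGACG, which can lie inside the longer one, and for the AP-1 element TGANTCA, the TATA box in the form TATAAA, the serum response element (CArG box) and the NF-kB site. TGACNTCA was present in 3 of the 9 windows and in 7.49% of all 32851 windows, and TGACG was present in 4 of the 9 and in 17.8% of all. The CArG box was present in 1 of the 9 and in 1.47% of all, and the NF-kB site in 2 of the 9 and in 3.9% of all. TATAAA was found in 1 of the 9, that of Fos, and in 12.4% of all, and TGANTCA in none of the 9 and in 6.75% of all. A match is a run of letters and not a measured binding site. Bases further upstream were not searched, so a window without a match does not show that the gene lacks the element. In the 60-base stretches below, each read 5′ to 3′ on the strand of its gene, capitals mark the match. The matches of Atf3 and Ier3 are to the motif read on the opposite strand. Gene spans given with each gene below are RefSeq positions on the same build.
Dusp1, TGACNTCA, chr17:26508582-26508641, minus strand: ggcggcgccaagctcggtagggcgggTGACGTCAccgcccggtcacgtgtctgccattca
Jun, TGACNTCA, chr4:95052234-95052293, minus strand: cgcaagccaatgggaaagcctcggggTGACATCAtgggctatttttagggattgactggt
Klf6, TGACNTCA, chr13:5861344-5861403, plus strand: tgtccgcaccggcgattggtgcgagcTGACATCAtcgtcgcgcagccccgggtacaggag
Fos, TGACG, chr12:85473798-85473857, plus strand: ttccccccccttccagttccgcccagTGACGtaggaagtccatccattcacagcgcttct
Junb, TGACG, chr8:84978821-84978880, minus strand: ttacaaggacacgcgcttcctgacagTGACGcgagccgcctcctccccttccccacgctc
Atf3, TGACG read on the opposite strand, chr1:191183334-191183393, minus strand: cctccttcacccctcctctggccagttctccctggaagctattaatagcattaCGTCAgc
Ier3, NF-kB site, chr17:35821595-35821654, plus strand: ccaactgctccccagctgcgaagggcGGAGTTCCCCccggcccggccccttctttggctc
Zfp36, CArG box, chr7:28379253-28379312, minus strand: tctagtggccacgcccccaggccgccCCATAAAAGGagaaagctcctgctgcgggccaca

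The libraries held from 10036 to 10392 genes at 1 FPKM or more, and replicates of a group correlated at 0.956 to 0.984 across genes. Read depth is not given in the sources used here, so values carry no counting interval. The tissue label did not match the defining markers. The 10 hepatocyte markers summed to between 62234 and 91942 FPKM in every library, whereas 6 of the 8 proximal tubule markers with values averaged under 1 FPKM in every group, with no value for Slc5a2 and Kap, and the distal nephron markers summed to at most 0.35 FPKM. The other 2 were Slc27a2, a fatty acid transporter that liver also expresses, and Aqp1, at 593.1 ± 17.9 and 30.6 ± 1.17 FPKM in control (SD, n = 3). All 4 Y-linked genes examined were at 1.23 FPKM or more in every library, although the mice were recorded as female. The libraries labelled kidney thus held abundant RNA of liver genes. In bulk tissue, fewer cells of a type and less RNA per cell cannot be told apart. Some neutrophil markers moved with colistin. The summed level of the 8 was 20.1 to 34.2 FPKM in colistin + 7-HC, 29.6 to 53.5 in colistin, 7.22 to 9.63 in 7-HC and 7.35 to 9.74 in control. Of the 5 tested, 3 (S100a8, S100a9 and Retnlg) rose in both comparisons, colistin with control and colistin + 7-HC with 7-HC. These shares stand beside 12.7% and 14.5% of all tested genes. S100a8 and Retnlg passed the filter only through colistin-treated libraries. The other 2 tested, Ly6g (−0.22 and −0.04 on the log2 scale) and Cxcr2 (0.15 and −0.47), did not pass in either comparison.

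**Figure D1:**
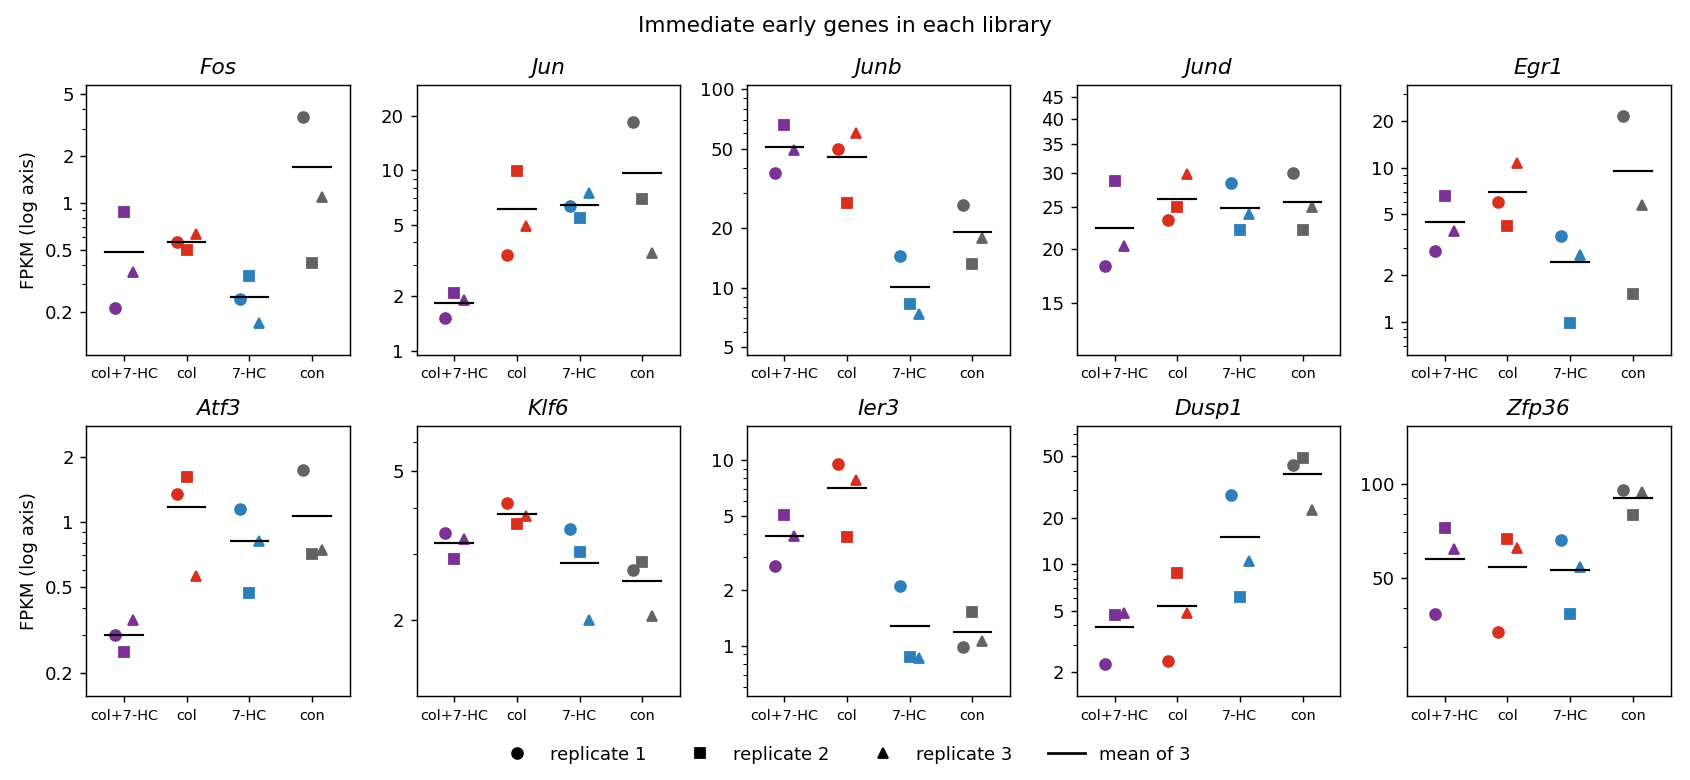
mRNA level of each gene in the 12 libraries, in FPKM on a log axis, with 1 point per library and a line at the mean of 3. From left to right the groups are colistin + 7-HC, colistin, 7-HC and control. Junb and Ier3 stood higher in all 6 colistin-treated libraries than in all 6 others, and Jun and Atf3 were lowest in the 3 libraries of colistin + 7-HC.

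The first question was how colistin alone changed the immediate early genes. Compared to control group, 3 of the 9 tested genes rose (Ier3, Junb and Klf6) and 1 fell (Dusp1) in colistin group, by limma on log2(FPKM + 0.5) at an adjusted p under 0.05. Across all 10764 genes tested, 32.7% were called, 12.7% higher and 19.9% lower, so a count of 4 in 9 lies near the background of this comparison. Groups did not overlap for 5 of the 9, the same 4 and Zfp36, beside 46.9% of all genes tested. The median log2 fold change of the 9 was 0.10, beside −0.07 for all genes tested.

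Junb (chr8:84976909-84978748), a Jun protein that pairs with Fos in AP-1 and is a known acute-phase target of STAT3, rose in each comparison of mice given colistin with mice not given it. Junb was at 37.9, 65.8 and 49.6 FPKM in colistin + 7-HC, at 50.0, 26.7 and 59.9 in colistin, at 14.4, 8.30 and 7.34 in 7-HC, and at 26.0, 13.2 and 17.7 in control. Every library of the colistin-treated mice was above all 6 others, with the second colistin library (26.7) just over the first control (26.0). Both colistin groups were above all other libraries for 9.93% of tested genes. In colistin compared with control, the log2 fold change of Junb was 1.22 ± 0.35 (SE, adjusted p = 0.0208). That call was lost without control replicate 2 or 3 (adjusted p = 0.0802 and 0.0539) and without colistin replicate 1 or 3 (0.0711 and 0.0801), with log2 fold changes of 0.98 to 1.19 in those 4 fits. The change was 2.32 ± 0.35 in colistin + 7-HC compared with 7-HC (adjusted p = 0.000663).

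Ier3 (chr17:35821713-35822911), also called IEX-1, is an NF-kB target that acts on cell survival and ERK signalling, and it rose furthest in colistin compared with control. Ier3 was at 2.70, 5.06 and 3.90 FPKM in colistin + 7-HC, at 9.51, 3.87 and 7.78 in colistin, at 2.11, 0.87 and 0.86 in 7-HC, and at 0.98, 1.52 and 1.06 in control. The 6 libraries with colistin and the 6 without it did not overlap. The log2 fold change was 2.09 ± 0.34 in colistin compared with control (adjusted p = 0.000828) and 1.34 ± 0.34 in colistin + 7-HC compared with 7-HC (adjusted p = 0.0114). The summed neutrophil markers given above were likewise higher in all 6 colistin-treated libraries, and their part in the levels of Junb and Ier3 was not tested.

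Klf6 (chr13:5861489-5870393), a Krüppel-like factor induced in liver injury, was slightly higher in colistin, where all 3 libraries stood above the other 9. Klf6 was at 3.43, 2.91 and 3.30 FPKM in colistin + 7-HC, at 4.13, 3.61 and 3.81 in colistin, at 3.50, 3.05 and 2.01 in 7-HC, and at 2.73, 2.87 and 2.05 in control. Such a separation of colistin from all other libraries was seen for 2.52% of tested genes. In colistin compared with control, the log2 fold change was 0.52 ± 0.17 (adjusted p = 0.0359). The call was lost with no filter on low values (adjusted p = 0.0648), without control replicate 1 or 3 (0.0606 and 0.128) and without colistin replicate 1 or 3 (0.109 and 0.0775).

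Dusp1 (chr17:26505591-26508472), the phosphatase that inactivates p38, JNK and ERK, fell the most of the 9 tested genes in colistin compared with control. Dusp1 was at 2.24, 4.67 and 4.84 FPKM in colistin + 7-HC, at 2.37, 8.77 and 4.82 in colistin, at 28.0, 6.16 and 10.5 in 7-HC, and at 44.1, 48.9 and 22.4 in control. Control libraries were all above both colistin groups, whereas 7-HC lay between and overlapped colistin and control. The log2 fold change was −2.83 ± 0.55 in colistin compared with control (adjusted p = 0.00253) and −3.13 ± 0.55 in colistin + 7-HC compared with control (adjusted p = 0.00196). Compared to 7-HC group, the fall of Dusp1 in colistin + 7-HC group was −1.59 ± 0.55 (adjusted p = 0.0451). This last call was lost with no filter on low values (adjusted p = 0.0802) and when any 1 of 5 of the 6 libraries was left out, the exception being 7-HC replicate 2, with adjusted p of 0.0222 to 0.16 over the 6 and a change of −1.02 without 7-HC replicate 1. It was lost as well with a replicate block (0.0712).

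Zfp36 (chr7:28376784-28379228), or tristetraprolin, binds AU-rich elements of cytokine and early gene mRNAs and promotes their decay. Zfp36 was at 38.2, 72.5 and 61.9 FPKM in colistin + 7-HC, at 33.4, 66.9 and 62.2 in colistin, at 66.3, 38.1 and 54.3 in 7-HC, and at 96.1, 79.8 and 94.3 in control. The 3 control libraries were above all 9 treated libraries, as for 2.81% of tested genes, but no comparison passed. The log2 fold change was −0.79 ± 0.30 in colistin compared with control (adjusted p = 0.0646) and −0.79 ± 0.30 in 7-HC compared with control (adjusted p = 0.425). The smallest p that an exact permutation test of 3 against 3 can give is 0.1, and Zfp36 had that value in all 3 comparisons with control. Without colistin replicate 2, Zfp36 was called in colistin compared with control (−0.97, adjusted p = 0.0373), and without colistin replicate 1 the change was −0.47 (adjusted p = 0.241).

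Jun (chr4:95049036-95052222), an AP-1 partner of Fos and a substrate of JNK, had its lowest levels in colistin + 7-HC. Jun was at 1.52, 2.10 and 1.92 FPKM in colistin + 7-HC, at 3.40, 9.90 and 4.91 in colistin, at 6.33, 5.43 and 7.50 in 7-HC, and at 18.6, 6.96 and 3.48 in control. The 3 libraries of colistin + 7-HC were close to each other and below the other 9, a pattern found in 1.57% of tested genes. Some endothelial markers also moved in this group. The summed level of all 6 was 24.9 to 30.9 FPKM in colistin + 7-HC, 26.9 to 40.1 in colistin, 34.4 to 39.4 in 7-HC and 28.1 to 35.4 in control. Of the 6, 3 (Kdr, Cdh5 and Tek) fell compared with 7-HC and with control, beside 16.6% and 15.6% of all tested genes. Pecam1 and Emcn did not pass. Stab2 went the other way without passing, at 0.11 compared with 7-HC and 0.37 compared with control on the log2 scale. It rose in colistin compared with control (0.50, adjusted p = 0.0311). Of 6 stellate and fibroblast markers, Col3a1 and Lrat fell compared with control. The others did not pass in that comparison, with Pdgfrb at 0.30 on the log2 scale. The 6 summed to 64.7 to 113.3 FPKM in colistin + 7-HC and 97.2 to 124.95 in control. The part of these cell types in the levels of Jun and Atf3 was not tested. The log2 fold change was −1.83 ± 0.48 in colistin + 7-HC compared with control (adjusted p = 0.0164), a call lost without colistin + 7-HC replicate 1 (0.0546). Compared with 7-HC it was −1.56 ± 0.48 (adjusted p = 0.029), and this call was lost with no filter on low values (0.0548) and without any 1 of the 6 libraries (0.0515 to 0.0834). In colistin compared with control, the difference in Jun was −0.46 ± 0.48 on the log2 scale (adjusted p = 0.497), and the first control library alone was at 18.6 FPKM.

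Atf3 (chr1:191170296-191183333), an ATF/CREB family repressor and stress-response factor, was low in all groups and lowest in colistin + 7-HC. Atf3 was at 0.30, 0.25 and 0.35 FPKM in colistin + 7-HC, at 1.35, 1.61 and 0.56 in colistin, at 1.15, 0.47 and 0.82 in 7-HC, and at 1.74, 0.71 and 0.74 in control. All 3 values of colistin + 7-HC were below the other 9, and Atf3 passed the filter with 4 libraries at 1 FPKM or more. The log2 fold change of Atf3 was −0.91 ± 0.31 in colistin + 7-HC compared with control (adjusted p = 0.0489). That call was lost with no filter on low values (0.0753), with a pseudocount of 1 (0.0611), with median-ratio scaling (0.0547) and without any 1 of the 6 libraries (0.0557 to 0.183). In colistin compared with control, the 95% interval of the log2 fold change ran from −0.57 to 0.77.

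Egr1, a zinc-finger factor under serum response elements, varied widely between replicates. Egr1 was at 2.90, 6.55 and 3.88 FPKM in colistin + 7-HC, at 5.98, 4.19 and 10.7 in colistin, at 3.63, 0.98 and 2.71 in 7-HC, and at 21.5, 1.51 and 5.70 in control. The control group held both the highest value of Egr1 and the second lowest. In colistin compared with control, the log2 fold change was 0.10 ± 0.71 (adjusted p = 0.93), with a 95% interval of −1.46 to 1.66.

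Fos (chr12:85473890-85477274), the partner of Jun proteins in AP-1, was low in all groups. Fos was at 0.21, 0.88 and 0.36 FPKM in colistin + 7-HC, at 0.56, 0.50 and 0.63 in colistin, at 0.24, 0.34 and 0.17 in 7-HC, and at 3.57, 0.41 and 1.09 in control. The control libraries spread over most of the range of Fos. The 3 libraries of 7-HC were below the 3 controls (exact permutation p = 0.1), and colistin overlapped control (exact permutation p = 0.4).

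Jund (chr8:70697739-70700616), the Jun protein that most tissues express at rest, differed little between groups. Jund averaged 22.4 ± 5.54 FPKM in colistin + 7-HC, 26.1 ± 3.41 in colistin, 24.9 ± 3.26 in 7-HC and 25.7 ± 3.97 in control (SD, n = 3 each). The 95% interval of the log2 fold change in colistin compared with control was −0.37 to 0.42. Whether the libraries kept strand is not given in the sources used here, so reads of Jun, Jund and Zfp36 could not be told apart from those of annotated antisense genes that overlap them.

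**Figure D2:**
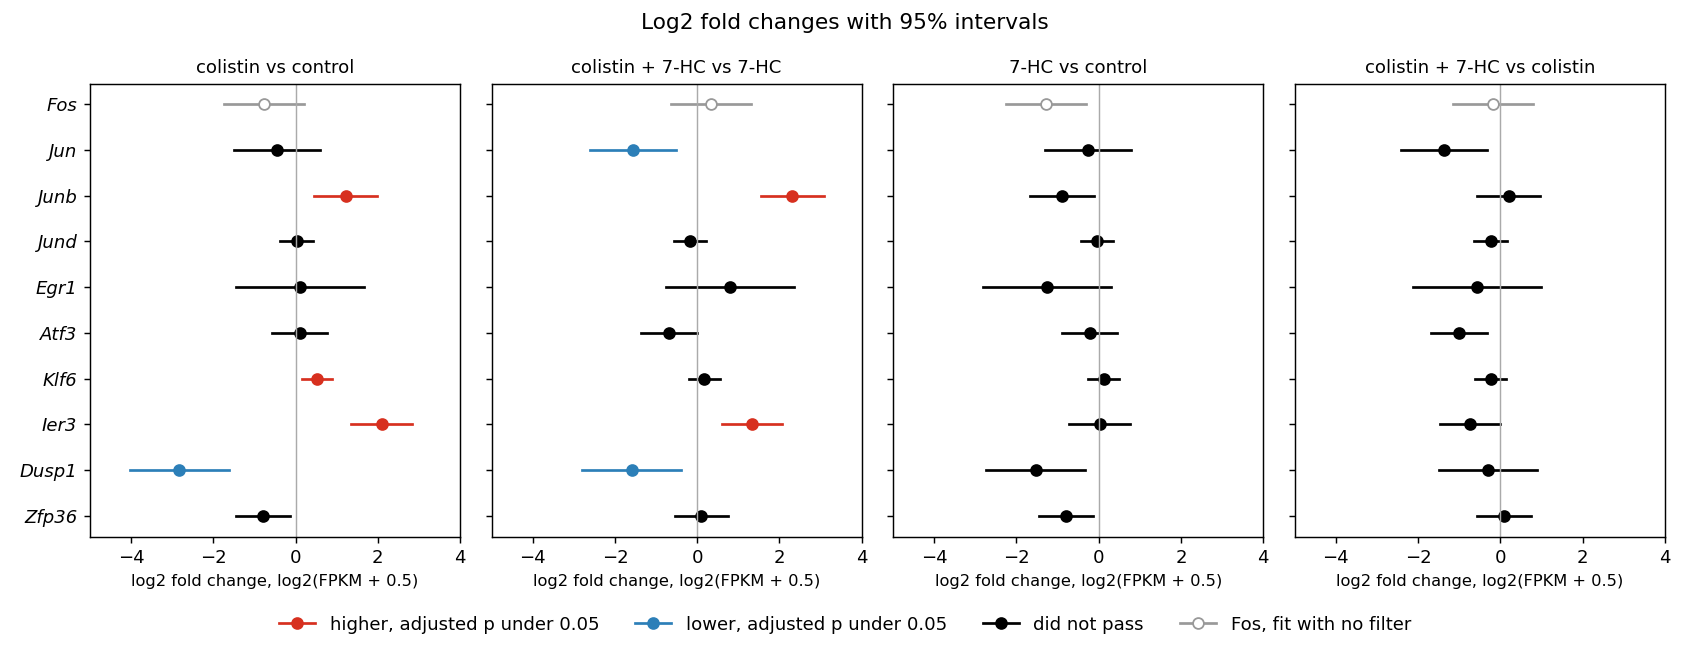
Log2 fold change of each gene in 4 comparisons, on the log2(FPKM + 0.5) scale, with bars for the 95% interval. Red and blue points are higher and lower at an adjusted p under 0.05, black points did not pass, and the open points are Fos from a fit with no filter. Coloured points appear in colistin vs control and in colistin + 7-HC vs 7-HC, and none in the other 2 panels.

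The make-up of the Jun family differed between libraries. FPKM is per length, so the levels of Jun, Junb and Jund can be set side by side. Junb made up 65.7, 68.1 and 69.1% of the summed FPKM of Jun, Junb and Jund in colistin + 7-HC, and 65.2, 43.3 and 63.3% in colistin. Its share was 29.3, 23.2 and 18.8% in 7-HC and 34.9, 31.2 and 38.3% in control. Junb was thus the most abundant Jun family mRNA in all 6 colistin-treated libraries, and Jund in all 6 others. The share of Jun was 2.6, 2.2 and 2.7% in colistin + 7-HC, 4.4, 16.1 and 5.2% in colistin, 12.9, 15.2 and 19.2% in 7-HC and 25.0, 16.5 and 7.5% in control. The second colistin library was apart from its group here, with the highest share of Jun and the lowest of Junb in that group.

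**Figure D3:**
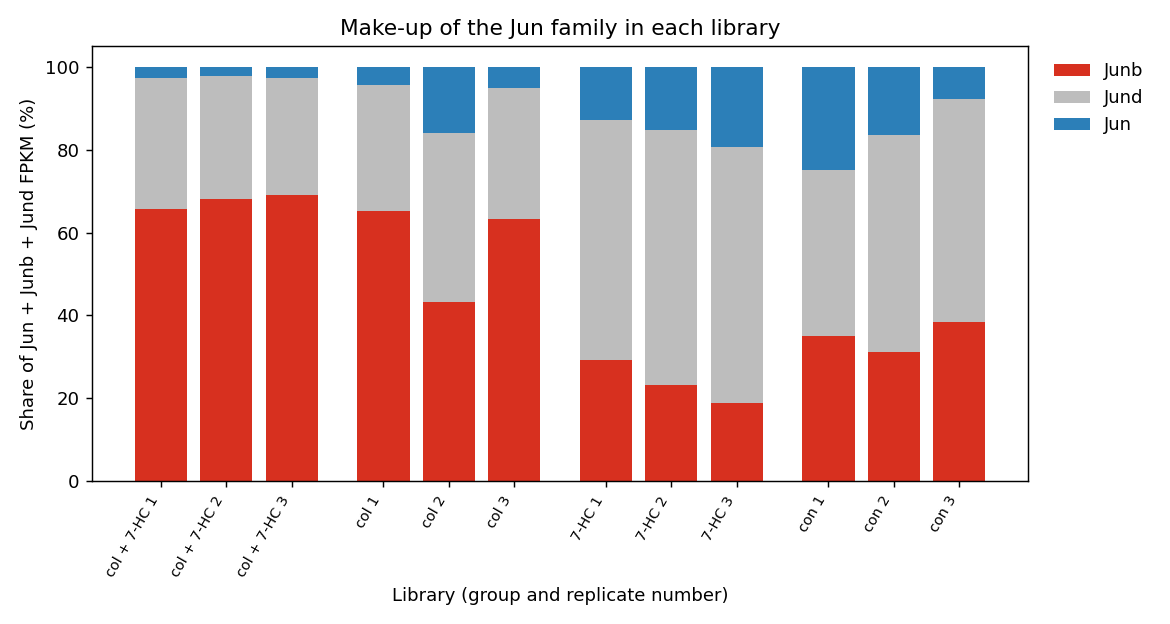
Share of Junb, Jund and Jun in the summed FPKM of the 3 genes, in percent, with 1 bar per library from colistin + 7-HC to control. The Junb share lies between 43.3 and 69.1% in the 6 colistin-treated libraries and between 18.8 and 38.3% in the 6 others.

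The second question was what adding 7-HC did to mice given colistin. In colistin + 7-HC compared with colistin, none of the 9 genes passed limma's test, where 1 gene of 10764 (0.00929%) did and 1337 had an unadjusted p under 0.05. Without colistin replicate 2, 472 genes (4.41%) were called, still with none of the 9, and the adjusted p of Ier3 was 0.0747 (−1.09 on the log2 scale). Groups did not overlap for Jun, Atf3 and Klf6, each lower in colistin + 7-HC, beside 6.99% of all tested genes in that direction. On the log2 scale Jun differed by −1.37 ± 0.48 (limma p = 0.0148, adjusted p = 0.294, exact permutation p = 0.1). Atf3 differed by −1.01 ± 0.31 (limma p = 0.00699, adjusted p = 0.25, exact permutation p = 0.1). For Ier3, which averaged 3.89 ± 1.18 FPKM in colistin + 7-HC and 7.05 ± 2.89 in colistin (SD, n = 3 each), limma gave −0.74 ± 0.34 (adjusted p = 0.402). Junb and Dusp1 had 95% intervals of −0.56 to 0.98 and −1.50 to 0.90, which do not show equal levels. The other log2 fold changes were −0.56 for Egr1, −0.23 for Jund, −0.23 for Klf6, 0.10 for Zfp36 and, with no filter, −0.17 for Fos.

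The third comparison was of 7-HC alone with saline, in which none of the 9 genes passed limma's test, beside 0.167% of all tested genes (18 genes), while 1032 had an unadjusted p under 0.05. With 1 library left out, 4 (without 7-HC replicate 2) to 61 (without control replicate 3) genes were called. Of the 9, Zfp36 was the one whose groups did not overlap, and it was lower, beside 10.1% of tested genes in that direction. Dusp1 averaged 14.9 ± 11.5 FPKM in 7-HC and 38.5 ± 14.1 in control (SD, n = 3 each), and limma gave −1.53 ± 0.55 on the log2 scale (adjusted p = 0.373, exact permutation p = 0.2). Junb averaged 10.02 ± 3.84 FPKM in 7-HC and 19.0 ± 6.50 in control, with −0.89 ± 0.35 on the log2 scale (adjusted p = 0.456, exact permutation p = 0.2). The other log2 fold changes were −1.27 for Egr1, −0.27 for Jun, −0.22 for Atf3, −0.04 for Jund, 0.12 for Klf6 and, with no filter, −1.27 for Fos. The change of Ier3 was 0.02 on the log2 scale, at 1.28 ± 0.719 FPKM in 7-HC and 1.19 ± 0.291 in control.

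The effect of colistin could also be read against 7-HC treated mice. In colistin + 7-HC compared with 7-HC, Junb and Ier3 rose and Jun and Dusp1 fell, which is 4 of 9 beside 31.1% of all tested genes (14.5% higher and 16.6% lower). Groups did not overlap for these 4 and Atf3, beside 46.5% of all. Those that did not pass were Atf3 (−0.68), Jund (−0.17), Zfp36 (0.11), Klf6 (0.17) and Egr1 (0.81), and Fos was at 0.34 with no filter, all on the log2 scale. In colistin + 7-HC compared with control, Junb (1.42 ± 0.35, adjusted p = 0.0125) and Ier3 (1.36 ± 0.34, adjusted p = 0.0129) rose and Jun, Atf3 and Dusp1 fell, beside 26.1% of all (10.6% higher and 15.6% lower). Groups did not overlap for 7 of the 9, these 5 with Klf6 and Zfp36, beside 48.3% of all. The log2 fold changes that did not pass were those of Klf6 (0.29), Zfp36 (−0.69), Jund (−0.21) and Egr1 (−0.46), and that of Fos was −0.94 with no filter. In that comparison, the calls of Junb and Ier3 were lost without colistin + 7-HC replicate 2 (adjusted p = 0.0543 and 0.0562), and that of Junb also without control replicate 2 (0.0521). Whether the colistin effect differed with and without 7-HC was tested by an interaction term, and none of the 9 genes passed limma's test, beside 0.297% of all (32 genes), while 1243 had an unadjusted p under 0.05. Junb had the lowest adjusted p of the 9 (0.429), with a difference of log2 fold changes of 1.10 ± 0.50. The differences of the others were 1.23 for Dusp1, 0.89 for Zfp36, 0.71 for Egr1, −0.19 for Jund, −0.35 for Klf6, −0.76 for Ier3, −0.78 for Atf3 and −1.10 for Jun, with 1.10 for Fos with no filter. The number of genes called in the interaction was 136 without colistin replicate 2 and 0 to 23 without any other library. These comparisons share groups and are not independent of each other.

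Some of the genes varied together between libraries of the same group, and others did not. Over the 12 libraries, deviations of log2(FPKM + 0.5) from the group means correlated most between Fos and Egr1 (r = 0.837), followed by Jund and Egr1 (0.781), Dusp1 and Zfp36 (0.774) and Junb and Egr1 (0.772). These are descriptions without a p, over libraries that share their groups and their scaling. Of the 45 pairs, 7 had a negative r, the lowest being Jun and Ier3 (r = −0.346) and Klf6 and Zfp36 (−0.253), and Jun and Junb were near 0 (0.028). The first control library had the highest value of all 12 for Fos, Jun, Jund, Egr1, Atf3 and Zfp36, 6 of the 10 genes, where it was the highest library for 4.46% of all tested genes and for 10 of 31 other immediate early genes. The third 7-HC library had the lowest value for Fos, Junb, Klf6 and Ier3, for 6.48% of all tested genes and for 2 of the 31. The first colistin library was the lowest for 10 of the 31, for 18.2% of all tested genes, and for Zfp36 alone of the 10 genes.

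**Figure D4:**
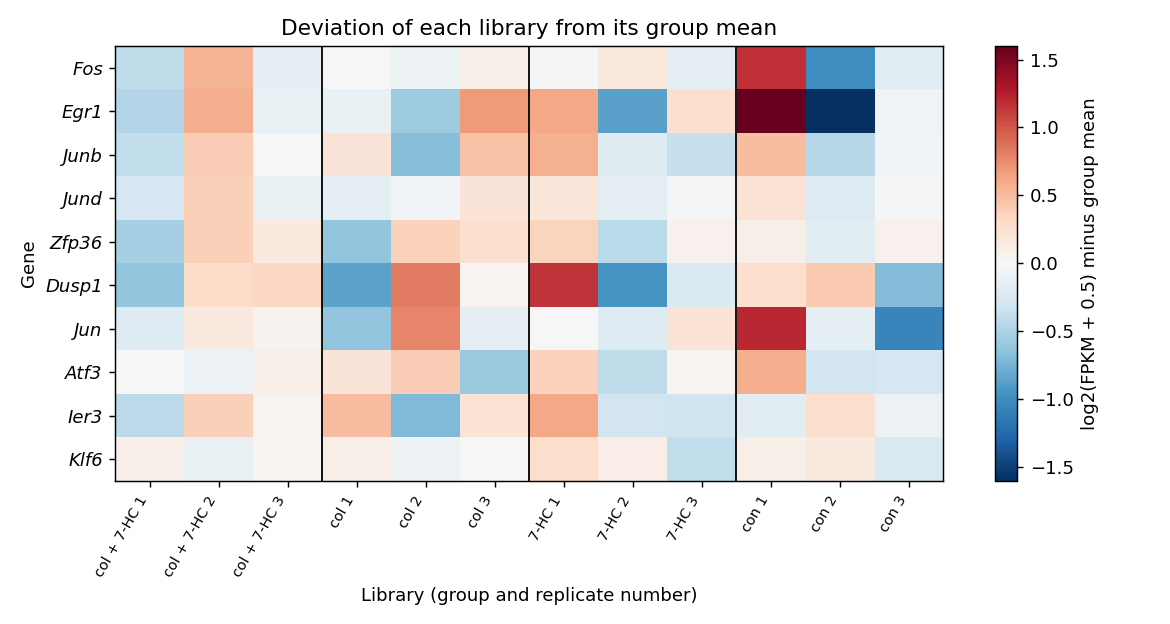
Deviation of each library from its group mean for the 10 genes, in log2(FPKM + 0.5), red above and blue below the mean, with groups from colistin + 7-HC at the left to control at the right. Fos, Egr1 and Jun are darkest red in the first control library, and Fos and Egr1 darkest blue in the second.

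Among the tested genes outside these 10, those with levels most like each of the 10 were listed by r over the 12 libraries, again without a p. Ier3 was followed most closely by Selenok (r = 0.987), Osmr (0.984) and Fkbp11 (0.98), and Junb by Mars (0.956), H13 (0.954) and Ambp (0.953). The first trio holds a selenoprotein of the endoplasmic reticulum, the oncostatin M receptor and a peptidyl-prolyl isomerase. Dusp1 was followed by Fam20a (r = 0.946), Tyms (0.936) and Hlx (0.934), and Zfp36 by Csrnp1 (0.911), Gm46008 (0.87) and Slc25a27 (0.856). Jun was followed by Rhob (r = 0.871), a small GTPase that is itself an immediate early gene, and nearly as closely by Fhl1 (0.869) and Pla2g6 (0.865). The nearest to Klf6, Atf3 and Egr1 were Chmp2a (0.891), Fbxo8 (0.88) and Wipi1 (0.83). Fos and Jund had the weakest nearest neighbours outside the 10, Pyroxd1 (r = 0.789) and Cracr2b (0.768). Within the 10, Fos and Egr1 had an r of 0.791.

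Of the other AP-1 and small Maf genes, 7 of 12 were tested. In colistin compared with control none rose and 2 fell, beside 12.7% higher and 19.9% lower of all tested genes. Atf7 averaged 3.18 ± 0.21 FPKM in colistin and 5.01 ± 0.0781 in control, a log2 fold change of −0.58 (adjusted p = 0.0131). Maff, a small Maf protein, fell by 1.23 on that scale (adjusted p = 0.0227). The median of the 7 was −0.21, and Fosb and Fosl1 were too low to be tested. None of the 7 passed in colistin + 7-HC compared with 7-HC, beside 31.1% of all tested genes.

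Of 31 other immediate early genes, 25 were tested. In colistin compared with control 3 rose and 3 fell, beside 12.7% higher and 19.9% lower of all tested genes. The median log2 fold change was −0.34, beside −0.07 for all genes tested. Socs3, the feedback inhibitor of STAT3 signalling, averaged 36.6 ± 25.0 FPKM in colistin and 4.46 ± 0.601 in control (2.51 on the log2 scale, adjusted p = 0.00676). Cebpd, an acute-phase transcription factor, rose by 1.47 (adjusted p = 0.00204) and Ier5 by 1.28 (adjusted p = 0.00482). Ier5 was at 1.53 to 4.02 FPKM in colistin and at most 0.69 in control and 0.92 in 7-HC. It passed the filter only through colistin-treated libraries. In the other direction, Ier2 averaged 8.51 ± 1.28 FPKM in colistin and 20.6 ± 2.73 in control, and fell by 1.23 on the log2 scale (adjusted p = 0.00024). Cyr61, a matricellular protein, fell by 1.17 (adjusted p = 0.00833), and Plk2 was the third to fall. Set against 7-HC, colistin + 7-HC had 3 of these genes higher (Socs3, Cebpd and Nfkbia) and 2 lower (Cyr61 and Rhob). The shares of all tested genes were 14.5% and 16.6%.

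Genes that act with Dusp1 and Zfp36 were counted in the same way. Of 14 MAP kinase feedback inhibitors 9 were tested. In colistin compared with control 1 rose (Dusp10, 0.60) and 3 fell, beside 12.7% higher and 19.9% lower of all tested genes. The median of the 9 was −0.38. Dusp10 was at 1.08 to 1.61 FPKM in colistin and at most 0.72 in control and 0.84 in 7-HC. It passed the filter only through colistin-treated libraries. Spry4, an inhibitor of the Ras pathway, averaged 0.85 ± 0.217 FPKM in colistin and 5.09 ± 2.64 in control (−1.96 on the log2 scale, adjusted p = 0.000903). The others that fell were Dusp6, the ERK phosphatase (−0.88, adjusted p = 0.0388), and Spred2. Of the ZFP36 family and its mRNA decay partners all 13 were tested. None rose and 2 fell, beside the same 12.7% and 19.9% of all, with a median of −0.10. Zfp36l2, a close relative of Zfp36, averaged 8.07 ± 1.51 FPKM in colistin and 19.7 ± 2.67 in control (−1.25 on the log2 scale, adjusted p = 7.78e-05), and Cnot7, a deadenylase subunit, was the other (−0.27, adjusted p = 0.041). Dusp16 from the first list, and Zfp36l2 and Cnot8 from the second, fell in colistin + 7-HC compared with 7-HC. In that comparison 16.6% of all tested genes fell.

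None of the other Krüppel-like genes rose with Klf6. Of 14 such genes 10 were tested. In colistin compared with control none rose and 5 fell, beside 12.7% higher and 19.9% lower of all tested genes. The median log2 fold change was −0.72, beside −0.07 for all genes tested. Klf15, a glucocorticoid-induced regulator of amino acid metabolism, averaged 37.0 ± 23.0 FPKM in colistin and 100.1 ± 9.80 in control (−1.62, adjusted p = 0.00603). Klf13 (−1.44, adjusted p = 0.000165), Klf16 (−0.89, adjusted p = 0.00166) and Klf12 (−0.76, adjusted p = 0.0022) fell as well, and Klf9 was the fifth. Klf13 and Klf15 also fell in colistin + 7-HC compared with 7-HC, beside 16.6% of all tested genes.

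Known AP-1 target genes were counted next to the AP-1 genes themselves. Of 14 targets 8 were tested. In colistin compared with control 4 rose and 1 fell, beside 12.7% higher and 19.9% lower of all tested genes. The median log2 fold change was 1.67, beside −0.07 for all genes tested. It lay between the changes of Ccl2 (0.46) and Timp1 (2.88), and neither gene would have passed the filter without colistin-treated libraries. The median was therefore not read as a result about these targets. The metallothioneins Mt1 and Mt2 averaged 7156 ± 632 and 5575 ± 1090 FPKM in colistin and 273.3 ± 97.5 and 205.8 ± 37.8 in control (4.77 and 4.75 on the log2 scale, adjusted p = 9.29e-07 and 3.27e-07). Hmox1, the heme oxygenase, rose by 3.50 (adjusted p = 8.76e-06) and Timp1, a metalloproteinase inhibitor, by 2.88 (adjusted p = 0.0093). The level of Timp1 was 8.52 ± 11.3 FPKM in colistin (highest 21.46), and at most 0.45 in control and 0.14 in 7-HC. It passed the filter only through colistin-treated libraries. Ccnd1, or cyclin D1, fell by 2.13 (adjusted p = 0.00235). Against 7-HC alone, 4 rose in colistin + 7-HC (Mt2, Hmox1, Mt1 and Ccl2) and Ccnd1 fell, beside 14.5% higher and 16.6% lower of all tested genes. Ccl2 was at 0.28 to 1.93 FPKM in colistin + 7-HC, 1.05 to 1.23 in colistin, 0.07 to 0.14 in 7-HC and 0.35 to 1.48 in control. Like Timp1, it reached the filter only with colistin-treated libraries. In 7-HC compared with control Mt1 and Mt2 rose, where 0.167% of all tested genes were called. Both also passed in the interaction, with differences of −2.50 for Mt1 (adjusted p = 0.0392) and −2.18 for Mt2 (adjusted p = 0.0356). That stands beside 0.297% of all tested genes, a number that changed with the library left out, as given above. These targets are regulated by other factors too, and their relation to AP-1 in these mice was not tested. No gene of any of these lists passed in colistin + 7-HC compared with colistin.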

How the data were processed

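The deposited table gives 1 expression value per gene and library, taken to be FPKM. According to the methods and the submitters' processing notes, the authors filtered reads with SOAPnuke and aligned them to GRCm38.p6 with HISAT2 2.0.4. For these values, reads were aligned to a reference set of coding genes with Bowtie2 2.2.5, and expression was estimated with RSEM 1.2.12. Columns of the authors' own DESeq2 1.4.5 comparisons (fold changes and p-values) were not used. Of 22899 genes, 5161 had no value in any library. Because FPKM values are not counts, log2(FPKM + 0.5) was fitted with limma 3.58.1 (trend) in R 4.3.3, with a term per group over all 12 libraries. Genes with at least 1 FPKM in at least 3 libraries were kept (10764), and p-values were adjusted by Benjamini-Hochberg over all of them, with a threshold of 0.05. The pseudocount understates fold changes of low genes. Exact permutation tests were two-sided. The interaction is the colistin effect with 7-HC minus that without. Values of Fos come from the fit with no filter. The script was tested on simulated data. Positions are RefSeq gene spans on GRCm38.p6. Python 3.11.15 and matplotlib 3.10.9 were used for the rest.

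All 10 genes were named in every comparison. From each other list, up to 4 called genes with the largest change in colistin vs control, and up to 4 in colistin + 7-HC vs 7-HC, were named, and Srf and the genes that complete a small count were added after their values were seen. From the likeness search up to 3 genes were named. One gene of the AP-1 target list is not reported here and was left out of its counts. The members and lists were chosen with earlier results of these data known. The libraries are labelled as replicates of a group, and p-values measure the spread between them. The alternatives were other pseudocounts, filters and scaling, limma without the trend, a fit of only the groups compared, a replicate block, and leaving out each library.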

Additional observations from a re-analysis of the deposited data

How the results depend on the processing

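Over the 9 tested genes, 783 values under alternatives were compared with those reported: 717 kept direction and side of the threshold, 36 kept direction and lost the call, 1 gained it and 29 changed sign. Calls kept wherever the gene was tested were those of Ier3 and Dusp1 in colistin vs control, Junb and Ier3 in colistin + 7-HC vs 7-HC, and Dusp1 in colistin + 7-HC vs control. The number of genes called in colistin vs control was 4, and 2 to 5 with 1 library left out (2 without control replicate 3 or without colistin replicate 1 or 3). In colistin + 7-HC vs control it was 5, and 2 to 4 with 1 library left out, and 3 when 1 FPKM was required in every library, which left 6 of the genes. In colistin + 7-HC vs 7-HC it was 4, and 2 to 3 with 1 library left out, and 2 with no filter. In the other 3 comparisons it was 0 under every alternative. With a replicate block the counts were 4, 5 and 3, and 0 in the others. Only 2 of 18 same-numbered pairs of libraries correlated above 0.1 in their deviations, so the numbers were not read as pairs.

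The sign of Jund in 7-HC vs control turned with median-ratio scaling (0.0031). Leaving out 1 library turned the sign of small changes, whose log2 fold changes then ranged as follows. In colistin vs control, Jun ranged from −0.99 to 0.15, Jund from −0.076 to 0.14, Egr1 from −0.75 to 0.98 and Atf3 from −0.10 to 0.40. In colistin + 7-HC vs colistin, Zfp36 ranged from −0.21 to 0.37, Junb from −0.13 to 0.44 and Dusp1 from −0.73 to 0.11. In 7-HC vs control, Jun ranged from −0.80 to 0.33, Jund from −0.14 to 0.074, Atf3 from −0.40 to 0.067, Ier3 from −0.29 to 0.18 and Klf6 from −0.021 to 0.32. Egr1 ranged from −1.31 to 0.42 in colistin + 7-HC vs control and from −0.18 to 1.55 in the interaction. In colistin + 7-HC vs 7-HC, Zfp36 ranged from −0.11 to 0.37 and Klf6 from −0.024 to 0.31. The cause was not tested.

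Each group held 3 mice, and read depth is unknown. The vehicle of 7-HC was not given to controls and is not described for colistin alone. The tissue markers did not match the label. Values are of 1 time after the last dose.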

Other observations

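Among 24 upstream kinases and serum response factors, 22 were tested. In colistin compared with control, 2 rose and 4 fell, beside 12.7% higher and 19.9% lower of all tested genes. The median log2 fold change was −0.14, beside −0.07 for all genes tested. Map2k6, the kinase that activates p38, averaged 1.51 ± 1.87 FPKM in colistin and 10.4 ± 7.41 in control (SD, n = 3 each; −2.64 ± 0.55 on the log2 scale, adjusted p = 0.00395). It averaged 2.72 ± 0.337 FPKM in colistin + 7-HC and 15.2 ± 1.99 in 7-HC (−2.28 ± 0.55, adjusted p = 0.00952). Mkl1, a coactivator of the serum response factor, rose in both comparisons (0.64 ± 0.18, adjusted p = 0.0212, and 0.72 ± 0.18, adjusted p = 0.0131). Rps6ka1, an ERK-activated kinase, fell in colistin compared with control (−0.68 ± 0.15, adjusted p = 0.00601), and Rps6ka4 rose in both comparisons (0.49 ± 0.16, adjusted p = 0.0405, and 0.65 ± 0.16, adjusted p = 0.0119). Map2k4, which activates JNK, rose in colistin + 7-HC compared with 7-HC (0.80 ± 0.18, adjusted p = 0.00701). Srf itself averaged 4.17 ± 0.43 FPKM in colistin and 4.26 ± 0.243 in control (−0.03 ± 0.10, adjusted p = 0.843). In colistin + 7-HC compared with 7-HC, 3 of the 22 rose and 5 fell, beside 14.5% and 16.6% of all tested genes.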
